A study of Mus musculus with 2 samples.

Results

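The vascular growth factor genes Vegfa, Vegfc, Pgf, Angpt1 and Angpt2 and their receptor genes Flt1, Kdr, Flt4, Nrp1 and Tek were examined in single cells of mouse tongue tumours. These 10 genes were taken by symbol from the 31053 genes of the deposited matrices, and each symbol matched 1 gene. Tumours came from wild-type C57BL/6 mice in which the carcinogen 4NQO had induced squamous carcinoma of the tongue, used to model human head and neck tumours, so both groups carry 4NQO exposure. One group then received JQ1, an inhibitor of BET bromodomain proteins that read acetylated histones, for 10 days, and the other received the control treatment for the same time. Each group is 1 library of single-cell 3' RNA sequencing, and the labels do not say how many mice it pools. With 1 library per group there is no replicate error, so no test was possible and every difference below compares these libraries.

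VEGF-A is the main growth signal for blood vessel endothelium. It acts through KDR, while FLT1 binds it tightly and signals weakly. Placental growth factor, the product of Pgf, binds FLT1 and not KDR. VEGF-C acts through FLT4 and drives lymphatic growth, and neuropilin-1, the product of Nrp1, is a co-receptor. Angiopoietin-1 from mural and stromal cells activates the endothelial receptor TEK and stabilises vessels. Angiopoietin-2 is stored and released by endothelium itself and often counters angiopoietin-1 at TEK.

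The JQ1 library held 16233 barcodes and 99565417 unique molecular identifiers (UMIs, counts of single RNA molecules), of which 14044 cells were kept, at a median of 3879 UMIs. The control library held 9754 barcodes and 118382532 UMIs, with 8150 kept cells at a median of 11302.5 UMIs; 40 barcode sequences occurred in both. Cells were clustered without the 10 genes and named by resemblance to marker lists, as "X-like". The capillary, venular and lymphatic endothelial-like classes held 492, 593 and 488 cells in the JQ1 library, against 153, 165 and 46 in the control library. Pericyte-like cells numbered 442 against 74, fibroblast-like cells 4769 against 883, keratinocyte-like cells 1351 against 5202 and macrophage-like cells 320 against 174. Each of the 7 classes had all its own markers above 0 in both libraries, except that Car4 and Aqp7 of the 9 capillary markers were at 0 in control capillary-like cells. Transcripts of other cell types also differed: salivary Muc5b was at 315.7 CPM (counts scaled to a common class total) in JQ1 and 83.3 CPM in control venular-like cells, and haemoglobin Hba-a1 was at 51.5 CPM in the JQ1 cells and listed at 0 in the control cells. Keratin Krt14 ran the other way in the same venular-like cells, at 43.5 CPM in JQ1 and 146.5 CPM in control.

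A level below is the CPM of a gene, from its UMIs summed over all cells of a class in a library and scaled by all UMIs of that class, the usual CPM unit. Brackets hold exact 95% intervals, which cover counting error only and not the spread between mice. The ratio is JQ1 over control. A gene was taken as measured when the libraries together gave it 50 UMIs or more, and as higher or lower when its ratio passed 1.5-fold. Counts are per gene, so splice forms such as soluble Flt1 are not told apart.

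**Figure D1:**
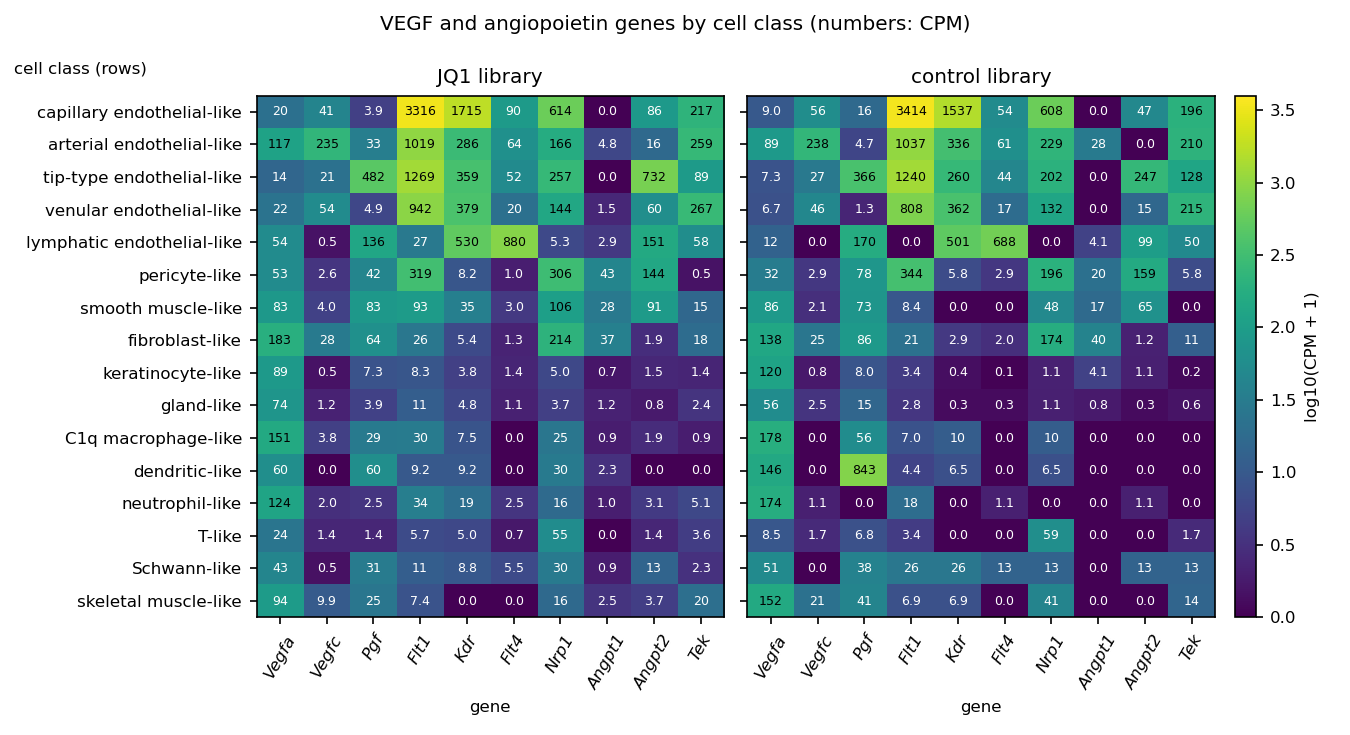
Level (CPM) of each of the 10 genes (columns) in 16 cell classes (rows), for the JQ1 library on the left and the control library on the right; colour is log10(CPM + 1) and the printed number is the CPM. Flt1 and Tek sit mainly in the blood endothelial rows, and Kdr in the blood and lymphatic endothelial rows. Flt4 sits mainly in the lymphatic row, and Vegfa in fibroblast-, keratinocyte- and myeloid-like rows, among others, in both libraries.

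In capillary-like cells the signalling receptors of blood endothelium were at nearly the same level in both libraries. Kdr, the main VEGF-A receptor, was at 1715 CPM (1651 to 1782) in JQ1 capillary-like cells and 1537 CPM (1424 to 1657) in control ones, a ratio of 1.12 (1.02 to 1.22). Flt1 was at 3316 CPM in JQ1 and 3414 CPM in control capillary-like cells, a ratio of 0.971 (0.917 to 1.03). The capillary-like class had the highest Kdr and Flt1 of any class in both libraries, and neither ratio came near the 1.5-fold mark.

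Nrp1 was at 614 CPM in JQ1 and 608.5 CPM in control capillary-like cells (ratio 1.01, 0.880 to 1.16), and at 144 and 132 CPM in the venular-like cells of the JQ1 and control libraries. Tek, the angiopoietin receptor, was at 217 CPM in JQ1 and 196 CPM in control capillary-like cells, and at 267 CPM in JQ1 and 215 CPM in control venular-like cells (ratio 1.24, 1.05 to 1.48). Tek was at 259 CPM in JQ1 and 210.2 CPM in control arterial-like cells, so its levels in the 3 classes lay closer together than those of Flt1 and Kdr. At a depth of 1000 UMIs per cell, Kdr had a UMI in 71.2% of JQ1 and 65.4% of control capillary-like cells. In T-like cells, which should lack the receptor, that share was 0.231% in JQ1 and 0 of 218 cells in control, which by a floor of 3 counts allows up to 1.38% of cells with a UMI. Median depth before thinning was 2736 UMIs in JQ1 and 2233 UMIs in control capillary-like cells. Over all endothelial-like cells the ratios were 1.06 for Kdr, 0.895 for Flt1 and 1.08 for Tek.

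The tip-type class, led by Apln and Csf2, held 119 JQ1 and 58 control cells. Its own 6 markers summed to 2361 CPM in JQ1 and 2172 CPM in control, and the 8 venular markers summed to more in it, 2971 CPM in JQ1 and 3038 CPM in control. It had less Tek in the JQ1 library, 89.4 CPM in JQ1 and 128 CPM in control (ratio 0.698, 0.513 to 0.954), which did not pass 1.5-fold. With other processing choices that Tek ratio ranged from 0.378 to 0.9995. Kdr in that class was at 359 CPM in JQ1 and 260.1 CPM in control (ratio 1.38, 1.14 to 1.68). Endothelial-like cells that got no subtype name numbered 281 in JQ1 and 28 in control. Nrp1 passed 1.5-fold in them, at 185 CPM in JQ1 and 112 CPM in control (ratio 1.65, 1.08 to 2.62). Flt1, Kdr and Tek had ratios of 1.47, 1.335 and 1.03 in these unnamed cells.

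Upstream sequences are shown for Flt1, Kdr and Tek, the receptors whose RNA lay mostly in endothelial-like cells and whose capillary level was within 1.5-fold between libraries. Each run is the 250 bases before the RefSeq transcription start on the GRCm38.p6 build, 5' to 3' on the gene's strand, with the ETS core GGAA or its reverse TTCC in capitals, ETS being the factor family best known at endothelial genes. The windows are chr5:147726012-147726261, minus strand, for Flt1; chr5:75978456-75978705, minus strand, for Kdr; and chr4:94739039-94739288, plus strand, for Tek.
Flt1: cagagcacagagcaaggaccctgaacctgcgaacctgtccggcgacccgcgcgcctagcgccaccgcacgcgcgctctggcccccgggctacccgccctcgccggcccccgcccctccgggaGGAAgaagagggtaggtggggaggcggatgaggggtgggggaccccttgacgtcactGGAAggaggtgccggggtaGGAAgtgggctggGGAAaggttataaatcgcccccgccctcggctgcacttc
Kdr: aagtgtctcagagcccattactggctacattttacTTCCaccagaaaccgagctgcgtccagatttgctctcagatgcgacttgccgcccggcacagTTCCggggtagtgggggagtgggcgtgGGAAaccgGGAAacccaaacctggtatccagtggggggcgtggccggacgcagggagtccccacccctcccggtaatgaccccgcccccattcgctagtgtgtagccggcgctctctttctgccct
Tek: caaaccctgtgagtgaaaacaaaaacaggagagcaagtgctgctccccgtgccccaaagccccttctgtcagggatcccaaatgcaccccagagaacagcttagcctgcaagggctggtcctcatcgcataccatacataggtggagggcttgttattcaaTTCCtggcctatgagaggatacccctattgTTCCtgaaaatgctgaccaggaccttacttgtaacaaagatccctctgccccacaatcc
The core occurred 4 times at Flt1, 4 times at Kdr and 2 times at Tek, where 93.4% of the 32851 promoter windows held at least 1 and the median was 3. A GC box (GGGCGG or CCGCCC, held by 32.7% of windows) occurred 3 times at Flt1, 2 times at Kdr and not at Tek. TATAAA or TTTATA, held by 12.4% of windows, occurred 1 time at Flt1 and in neither other window. These short matches are a description of the letters and show no factor at work.

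Of the 10 genes, 7 were measured in capillary-like cells, and 2 of them, Flt4 and Angpt2, were higher in the JQ1 library and none lower; over all 5659 genes measured there, 12.0% were higher and 5.11% lower. In venular-like cells 2 of 8 measured members, Vegfa and Angpt2, were higher and none lower, where 11.9% of all genes were higher and 3.79% lower. In lymphatic-like cells 3 of 7, Vegfa, Flt1 and Angpt2, were higher and none lower, where 18.5% of genes were higher and 10.1% lower. All 3 reached 50 UMIs through the JQ1 library alone. Vegfa had 111 JQ1 and 3 control UMIs, Flt1 56 JQ1 and 0 control, and Angpt2 312 JQ1 and 24 control. So did the members called in capillary- and venular-like cells, among them venular-like Vegfa with 73 JQ1 and 5 control UMIs. The lymphatic-like class held 2064308 UMIs in JQ1 and 241350 in control. Genes could thus be called without any control UMI, and these control levels rest on few UMIs. Tip-type cells had 1 of 7 higher (Angpt2) and none lower, beside 11.5% of genes higher and 5.45% lower. None of 7 members passed 1.5-fold either way in arterial-like cells, beside 12.5% of genes higher and 7.05% lower. Angpt2 was the member that passed 1.5-fold in each of the capillary-, venular-, lymphatic- and tip-type classes. Without the doublet filter the capillary count was 0. Over all endothelial-like cells 3 of 9 measured members, Vegfa, Flt4 and Angpt2, were higher and none lower, beside 12.7% of genes higher and 3.43% lower. The subtype mix differs in this sum: lymphatic-like cells were 488 of 2245 JQ1 and 46 of 524 control cells. They held 77.5% of JQ1 and 63.4% of control Flt4 UMIs, and within them the Flt4 ratio was 1.28. The part of the mix in the pooled ratios was not tested.

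**Figure D2:**
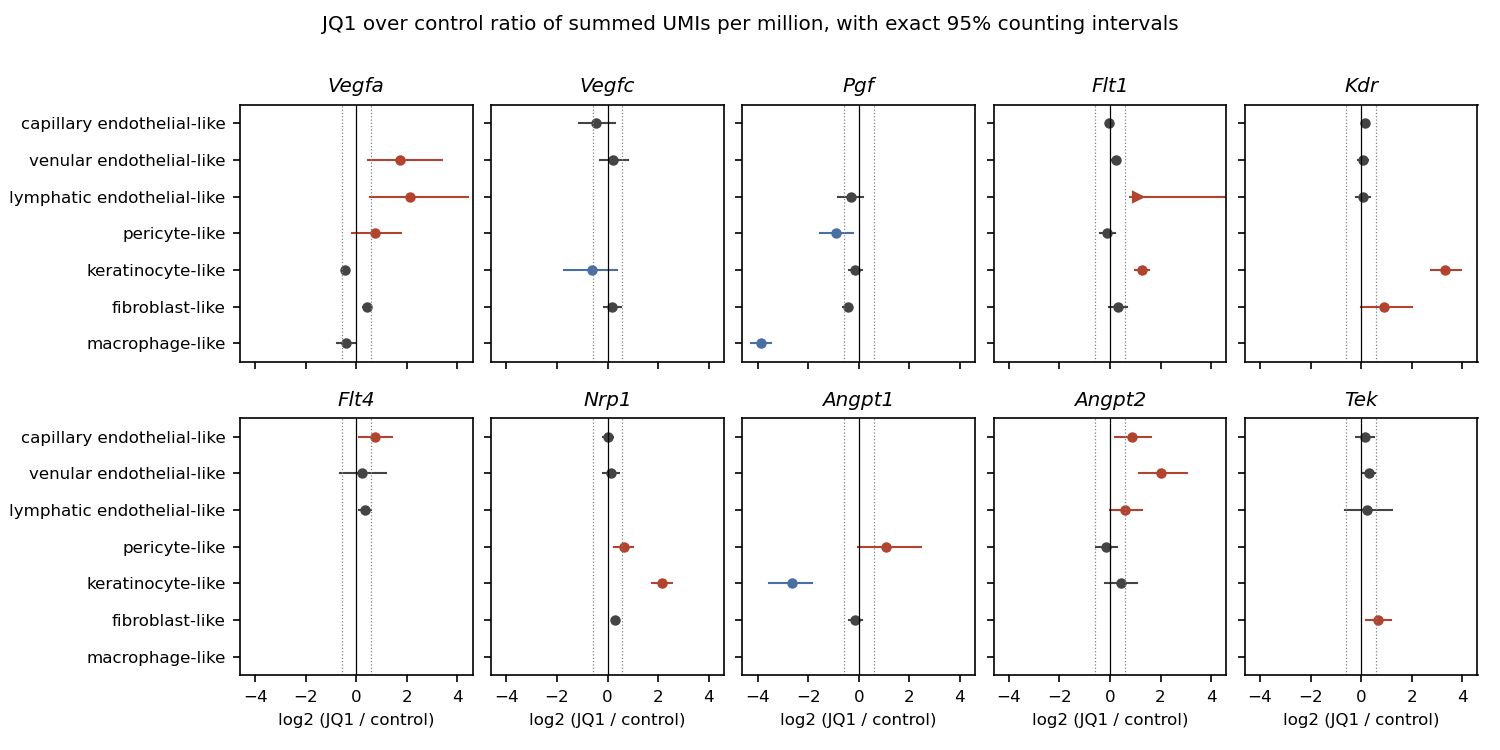
Ratio of JQ1 over control on a log2 axis for each of the 10 genes (panels) in 7 cell classes (rows), with exact 95% counting intervals. Dotted lines mark 1.5-fold, red is higher and blue lower in JQ1, and dark grey lies between. Unmeasured pairs are left out, and the triangle is the ratio with control set to 3 counts. Kdr, Flt1 and Nrp1 lie near 0 in capillary- and venular-like cells, while Angpt2 lies to the right in the 3 endothelial classes.

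Angpt2, the TEK ligand made by endothelium, was higher in the JQ1 library in tip-type and venular-like cells under every alternative that gave a value, while in capillary- and lymphatic-like cells its direction changed with the processing. In tip-type cells it was at 732 CPM (686 to 781) in JQ1 and 247 CPM (207 to 293) in control, a ratio of 2.96 (2.47 to 3.58). It was detected in 69.7% of JQ1 and 39.7% of control tip-type cells, and at 1000 UMIs per cell in 30.5% of JQ1 cells (22.4% to 39.7%) and 12.1% of control cells (4.99% to 23.3%). In T-like cells at that depth it had a UMI in 0 of 433 JQ1 and 0 of 218 control cells, which by the same floor of 3 counts allows shares of up to 0.693% in JQ1 and 1.38% in control. The median depth of the tip-type cells was close, 9099 UMIs in JQ1 and 8816 UMIs in control. The tip-type class had the highest Angpt2 level of all classes in both libraries.

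In venular-like cells Angpt2 was at 59.8 CPM in JQ1 and 14.8 CPM in control, from 195 and 11 UMIs, a ratio of 4.04 (2.21 to 8.23). Both larger venular-like clusters showed it: the Adgrg6-led cluster had 44.2 CPM in JQ1 and 15.2 CPM in control, and the Ackr1-led cluster 76.6 CPM in JQ1 and 14.7 CPM in control. Few cells carried it, since 10.6% of JQ1 and 4.85% of control venular-like cells had a UMI and the 5 highest cells held 36.4% of the JQ1 and 72.7% of the control UMIs. The ratio without those 5 cells of each library was 8.81.

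The capillary- and lymphatic-like differences in Angpt2 were less even. Capillary-like cells had 86.5 CPM in JQ1 and 47.3 CPM in control (ratio 1.83, 1.15 to 3.05). The 5 highest cells held 56.0% of the JQ1 UMIs, and at 1000 UMIs per cell 3.47% of JQ1 and 4.51% of control cells had one. By cluster, the Chrm2-led capillary cells had 55.6 CPM in JQ1 and 46.8 CPM in control, and the Adamtsl2-led ones 234 CPM in JQ1 and 49.3 CPM in control. With clusters cut at resolution 0.5 or 2.0 in place of 1.0 the capillary ratio was 0.974 or 0.942, so its direction changed with the clustering, and with doublet calls kept it was 1.02. Lymphatic-like cells had 151 CPM in JQ1 and 99.4 CPM in control (ratio 1.52, 1.003 to 2.41). Averaging each cell's own CPM gave a ratio of 0.822, and leaving out the 5 highest cells of each library gave 4.08. Over all endothelial-like cells, a sum that does not depend on subtype borders, Angpt2 was at 178 CPM in JQ1 and 84.9 CPM in control, a ratio of 2.10 (1.81 to 2.43). The mix of subtypes in that sum differs between libraries.

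Outside endothelium, Angpt2 was at 144 CPM (127 to 161) in JQ1 and 159 CPM (120 to 207) in control pericyte-like cells, a ratio of 0.903. Endothelial Pecam1 was at 14.3 CPM in JQ1 and 95.3 CPM in control pericyte-like cells, and its part in the pericyte levels was not tested. All 10 endothelial markers were above 0 in the pericyte-like class of either library, at a summed 614 CPM in JQ1 and 991 CPM in control.

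**Figure D3:**
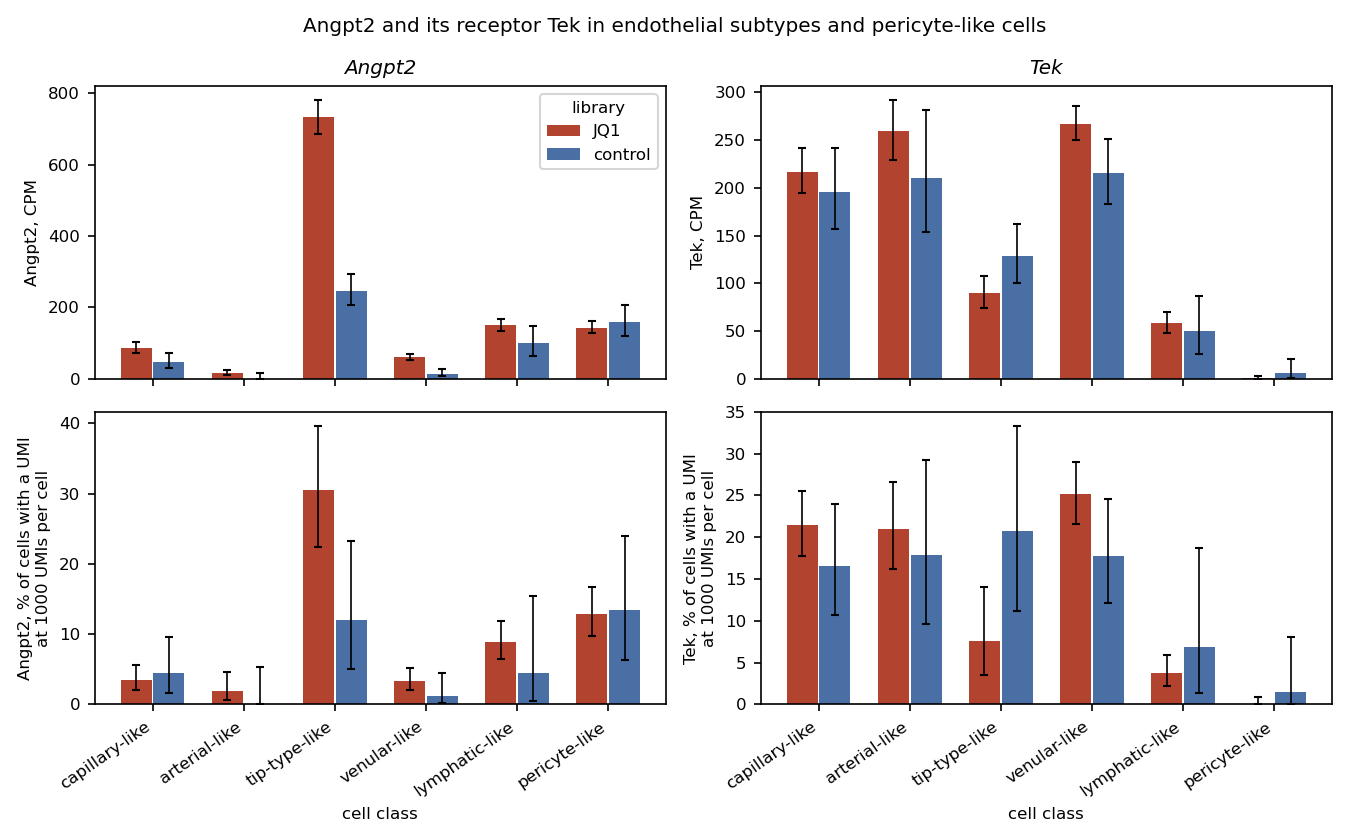
Level in CPM (top) and share of cells with a UMI at 1000 UMIs per cell (bottom) of Angpt2 (left) and its receptor Tek (right) in endothelial subtypes and pericyte-like cells, JQ1 bars left of control bars, with exact 95% intervals for counting error. Angpt2 stands apart in tip-type cells, at 732 CPM in JQ1 and 247 CPM in control. The CPM intervals of Tek overlap between libraries in every class shown, narrowly in venular-like and tip-type cells.

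Vegfa came from different cells in the 2 libraries. Fibroblast-like cells held 44.3% of the 9057 Vegfa UMIs of kept JQ1 cells, gland-like cells 20.9% and keratinocyte-like cells 19.3%. In the control library keratinocyte-like cells held 91.8% of 13223 Vegfa UMIs. Such shares depend on how many cells and UMIs of each class a library holds. Over all kept cells the level was 98.9 CPM in JQ1 and 116 CPM in control.

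The Vegfa level was also compared within each class. Keratinocyte-like cells, the tumour-forming lineage, had 89.1 CPM (84.9 to 93.3) in JQ1 and 120 CPM (118 to 123) in control, a ratio of 0.739 (0.702 to 0.777). Fibroblast-like cells had 183 CPM (178 to 189) in JQ1 and 138 CPM (126 to 151) in control, a ratio of 1.33 (1.21 to 1.47). Neither passed 1.5-fold, and in these 2 classes the differences ran in opposite directions.

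The keratinocyte-like value mixes clusters that the libraries fill unequally: 873 of the 1351 JQ1 cells lay in a Krt15-led cluster that held 26 control cells, and 868 control but 11 JQ1 cells lay in a cluster led by BC037156 and Ppbp. In the Krt6b-led cluster, marked by the cornified envelope genes Sprr1b and Sprr2d, Vegfa was at 71.2 CPM in 112 JQ1 cells and 168 CPM in 413 control cells (ratio 0.424, 0.364 to 0.491). In the Krt42- and Spink5-led cluster it was at 123 CPM in JQ1 and 157 CPM in control. In the Krt13-led cluster it was at 85.9 CPM in JQ1 and 79.3 CPM in control, and in the Csn1s1 cluster at 115 CPM in each library. Of the 5 keratinocyte-like clusters with at least 20 cells in each library, the Krt6b-led one had the lowest ratio.

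Among fibroblast-like cells, the Mmp3- and Grem1-led cluster, which also carried Il11 and Saa3, had 199 CPM of Vegfa in 450 JQ1 cells and 87.7 CPM in 106 control cells (ratio 2.27, 1.83 to 2.83). The Wif1- and Gdf10-led cluster had the most, 339 CPM in JQ1 and 206 CPM in control (ratio 1.65, 1.21 to 2.29). In the 2 largest clusters the libraries were close: 146 CPM in JQ1 and 155 CPM in control for the Sfrp4-led cells, and 177 CPM in JQ1 and 158 CPM in control for the Cilp-led cells.

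**Figure D4:**
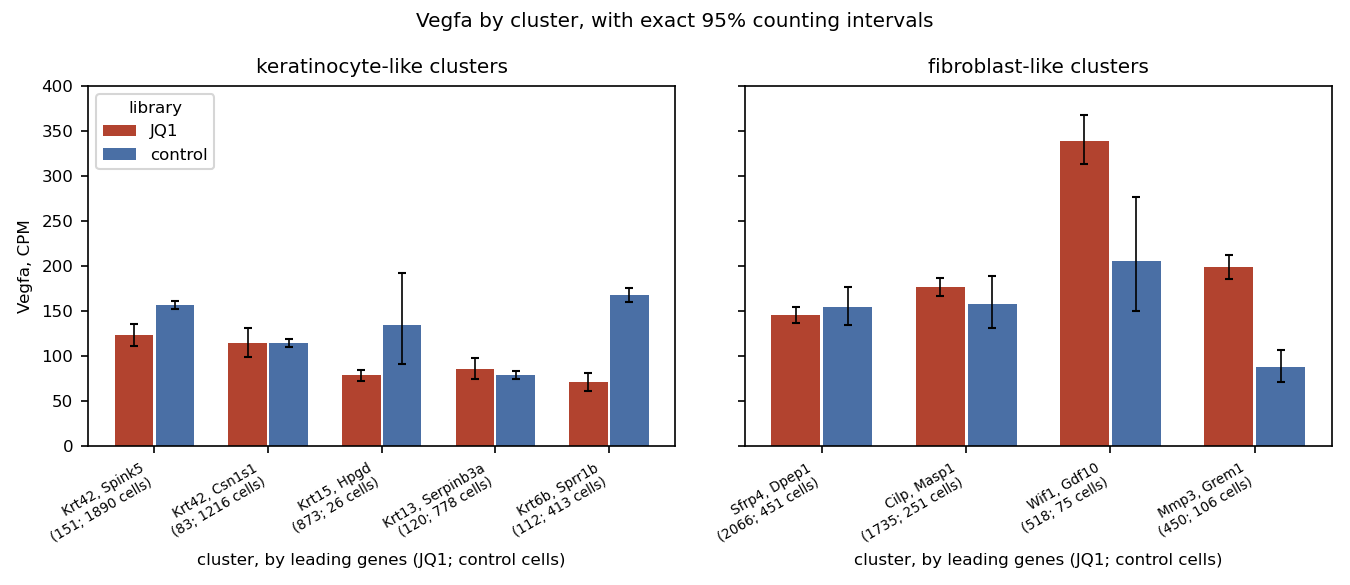
Vegfa level (CPM) in keratinocyte-like (left) and fibroblast-like (right) clusters with at least 20 cells in each library, named by their leading genes with the cell numbers of JQ1 and then control; bars are JQ1 left of control, with exact 95% counting intervals. The Krt6b-led cluster is at 71.2 CPM in JQ1 against 168 CPM in control, and the Mmp3-led cluster at 199 CPM in JQ1 against 87.7 CPM in control.

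Myeloid cells also carried Vegfa. The C1q macrophage-like cells had 151 CPM in JQ1 and 178 CPM in control (ratio 0.847, 0.614 to 1.19), and neutrophil-like cells 124 CPM in JQ1 and 174 CPM in control. Endothelial Vegfa was low, at 22.4 CPM in JQ1 and 6.72 CPM in control venular-like cells, from 73 and 5 UMIs (ratio 3.33, 1.36 to 10.6). T-like cells in the same libraries had 24.2 CPM in JQ1 and 8.48 CPM in control, so the T-like values lay close to the venular-like ones in each library. In lymphatic-like cells Vegfa was at 53.8 CPM in JQ1 and 12.4 CPM in control, from 111 and 3 UMIs (ratio 4.33, 1.44 to 21.3), and at 1000 UMIs per cell it had a UMI in 4.65% of JQ1 and 4.55% of control cells. In T-like cells those shares were 1.85% in JQ1 and 0.459% in control.

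Pgf, which encodes a ligand of FLT1, was far lower in the macrophage-like class of the JQ1 library. It was the 1 of 2 measured members lower there, with none higher, where 14.5% of all genes were higher and 9.50% lower. The class had 38.2 CPM (29.1 to 49.3) in JQ1 and 553 CPM (500.3 to 610) in control. Clustering all immune-like cells again gave a dendritic-like class that overlaps this one, with 26 UMIs in 68 JQ1 cells and 387 UMIs in 74 control cells, or 59.5 CPM in JQ1 and 843 CPM in control, a ratio of 0.0706 (0.0455 to 0.105). The C1q macrophage-like cells had 29.2 CPM in JQ1 and 55.9 CPM in control, from 31 and 16 UMIs.

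Within the dendritic-like cells of the control library Pgf lay mostly in those with Cd207, a split made after the values were seen. Cd207 encodes langerin, the marker of Langerhans cells of the epithelium. Of the 74 control cells 23 had a Cd207 UMI, and these held 369 of the 387 control Pgf UMIs, at 1700 CPM (1531 to 1883), with a Pgf UMI in 21 of the 23 cells. Of the 68 JQ1 cells 6 had a Cd207 UMI, and these had no Pgf UMI in 44687 UMIs, with an upper limit of 82.5 CPM. Leaving out the 5 highest cells of each library gave a dendritic-like ratio of 0.0152. Cells without a Cd207 UMI had 66.3 CPM (43.3 to 97.2) in JQ1 and 74.3 CPM (44.1 to 118) in control, a ratio of 0.892 (0.471 to 1.73). Cd207 itself was at 29.8 CPM in JQ1 and 1897 CPM in control dendritic-like cells. Fewer cells of the Cd207 kind and less Pgf per such cell cannot be told apart here, because 6 JQ1 cells had a Cd207 UMI. Whether a Cd207 UMI marks cells of that kind in the JQ1 library was not tested. Dendritic-like cells also had less Vegfa, at 59.5 CPM in JQ1 and 146 CPM in control (ratio 0.408, 0.249 to 0.650), and without a Cd207 UMI 66.3 CPM in JQ1 and 66.1 CPM in control. Both members measured in this class were lower and none higher, beside 13.3% of genes lower and 12.7% higher. Each had 26 JQ1 UMIs and had enough UMIs to count as measured through the control library alone.

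Pgf was also carried by tip-type, lymphatic- and fibroblast-like cells. Tip-type cells had 482 CPM in JQ1 and 366 CPM in control (ratio 1.31, 1.12 to 1.55), but 5 cells held 84.0% of the control UMIs, and without the 5 highest cells of each library the ratio was 4.45. At 1000 UMIs per cell 22.0% of JQ1 and 10.3% of control tip-type cells had a Pgf UMI, where T-like cells had 0.231% in JQ1 and 0.459% in control. Lymphatic-like cells had 136 CPM in JQ1 and 170 CPM in control, a ratio of 0.798 that was 0.337 by the mean of per-cell CPM and 2.60 without the 5 highest cells of each library. Fibroblast-like cells had 63.8 CPM in JQ1 and 86.4 CPM in control (ratio 0.739, 0.652 to 0.840), lower in 3 of their 4 clusters. Keratinocyte-like cells had 7.25 CPM in JQ1 and 7.97 CPM in control.

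**Figure D5:**
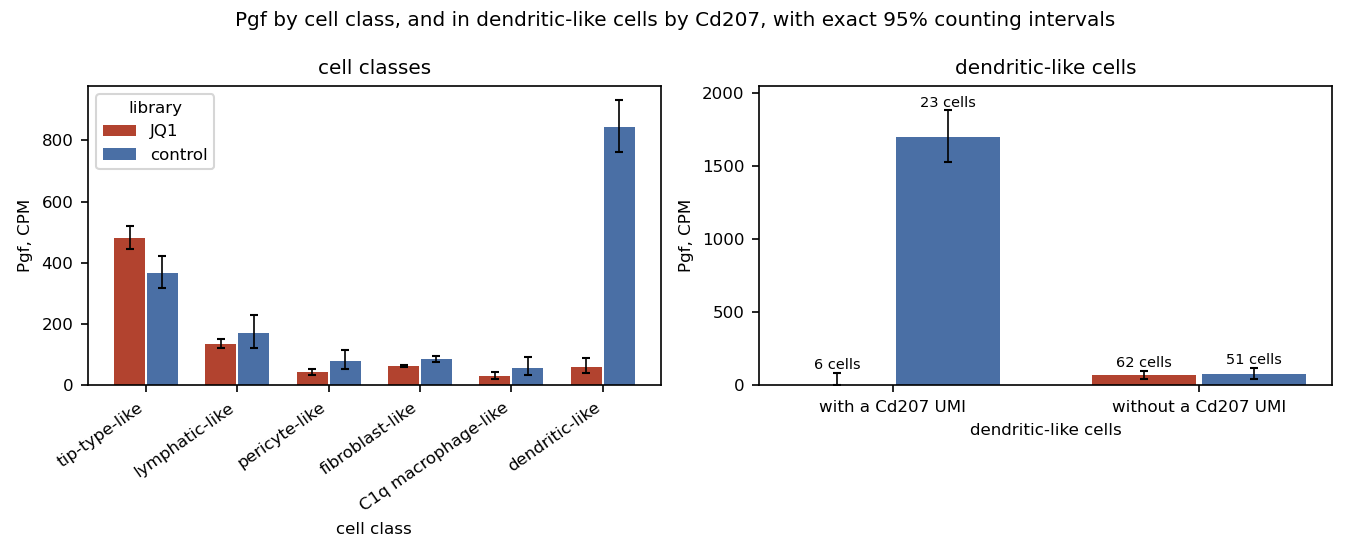
Pgf level (CPM) in 6 cell classes (left) and in dendritic-like cells with and without a Cd207 UMI (right), JQ1 bars left of control bars, with exact 95% counting intervals and cell numbers. The control dendritic-like cells with a Cd207 UMI stand at 1700 CPM, and the cells without one at 66.3 CPM in JQ1 and 74.3 CPM in control.

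Vegfc, the lymphatic growth factor, had its highest level in arterial-like cells, at 235 CPM (207 to 267) in JQ1 and 238 CPM (177 to 313) in control, a ratio of 0.988 (0.728 to 1.36). Next came venular-like cells, at 53.6 CPM in JQ1 and 45.7 CPM in control, and capillary-like cells, at 41.3 CPM in JQ1 and 56.3 CPM in control; their intervals overlap in each library. Fibroblast-like cells had 28.2 CPM in JQ1 and 24.6 CPM in control. Of all Vegfc UMIs, fibroblast-like cells held 48.9% in JQ1 and 27.6% in control, and endothelial-like cells 43.9% in JQ1 and 41.9% in control. Its receptor Flt4 was highest in lymphatic-like cells, at 880 CPM (840 to 921) in JQ1 and 688 CPM (587 to 801) in control, a ratio of 1.28 (1.09 to 1.51). Flt4 passed 1.5-fold in capillary-like cells, at 89.7 CPM in JQ1 and 54.1 CPM in control, from 139 and 24 UMIs (ratio 1.66, 1.07 to 2.68). It no longer passed with thinned cells (1.28), a stricter cell filter (1.31), doublet calls kept (1.45) or resolution 0.5 (1.48) or 2.0 (1.36). Kdr in lymphatic-like cells was at 530 CPM in JQ1 and 501 CPM in control.

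Angpt1, the TEK agonist, was at 36.5 CPM in JQ1 and 40.01 CPM in control fibroblast-like cells (ratio 0.913, 0.761 to 1.10). Fibroblast-like cells held 78.3% of all Angpt1 UMIs in JQ1 and 23.8% in control, and keratinocyte-like cells 1.27% in JQ1 and 71.8% in control. Pericyte-like cells had 42.9 CPM in JQ1 and 20.2 CPM in control, from 84 and 7 UMIs (ratio 2.12, 0.986 to 5.44), and the ratio was 1.39 with thinned cells and 5.63 without the 5 highest cells of each library. In the pericyte-like class 3 of 6 measured members were higher, Vegfa, Nrp1 and Angpt1, and 1, Pgf, was lower, beside 16.9% of all genes higher and 6.80% lower. Vegfa, with 104 JQ1 and 11 control UMIs, and Angpt1 had enough UMIs to count as measured through the JQ1 library alone. So did the lower Pgf, with 82 JQ1 and 27 control UMIs, while Nrp1 had enough in each library. The control levels of Vegfa and Angpt1 thus rest on few UMIs. Nrp1 was at 305.5 CPM in JQ1 and 196 CPM in control (ratio 1.55, 1.21 to 2.03), Vegfa at 53.1 CPM in JQ1 and 31.8 CPM in control (ratio 1.67, 0.896 to 3.45), and Pgf at 41.9 CPM in JQ1 and 78.0 CPM in control (ratio 0.537, 0.344 to 0.863). The calls ended under some alternatives: Vegfa was 1.15 with thinned cells and 2.85 without the 5 highest cells, Nrp1 was 1.16 by the mean of per-cell CPM, and Pgf was 0.738 by that mean and 0.790 without the 5 highest cells. Flt1, which pericyte-like cells also carried, was at 319 CPM in JQ1 and 344 CPM in control (ratio 0.928, 0.762 to 1.14).

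In keratinocyte-like cells 3 of 8 measured members were higher in the JQ1 library, Flt1, Kdr and Nrp1, and 2 were lower, Vegfc and Angpt1; of all 13382 genes measured there 19.2% were higher and 7.35% lower, and the median gene was higher by 0.19 on the log2 scale. All 3 higher members were at very low levels: Flt1 at 8.27 CPM in JQ1 and 3.42 CPM in control, Kdr at 3.78 CPM in JQ1 and 0.377 CPM in control, and Nrp1 at 4.95 CPM in JQ1 and 1.11 CPM in control. All 10 endothelial markers were above 0 in these cells of either library, at a summed 60.05 CPM in JQ1 and 16.6 CPM in control, among them Cdh5 at 5.26 CPM in JQ1 and 0.417 CPM in control. Their part in these differences was not tested. Within the Krt42- and Spink5-led cluster none of the members was higher. Angpt1 was at 0.664 CPM in JQ1 and 4.13 CPM in control keratinocyte-like cells, and 381 of its 416 control UMIs lay in the cluster led by BC037156 and Ppbp, which held 11 JQ1 cells. Vegfc was at 0.511 CPM in JQ1 and 0.774 CPM in control, from 10 and 78 UMIs (ratio 0.66, 0.304 to 1.28), so its interval included 1. Kdr, with 74 JQ1 and 38 control UMIs, had enough UMIs to count as measured through the JQ1 library alone. The lower Vegfc and Angpt1 had enough through the control library alone, and Flt1 and Nrp1 in each library.

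In fibroblast-like cells 2 of 8 measured members were higher, Kdr and Tek, and none lower, beside 10.7% of genes higher and 3.89% lower. Tek was at 17.8 CPM in JQ1 and 11.3 CPM in control (ratio 1.57, 1.13 to 2.24). Kdr was at 5.43 CPM in JQ1 and 2.90 CPM in control, from 119 and 10 UMIs (ratio 1.87, 0.984 to 4.01), so its interval included 1. Kdr and Tek, which had 389 JQ1 and 39 control UMIs, each had enough UMIs to count as measured through the JQ1 library alone. The 10 endothelial markers summed to 166 CPM in JQ1 and 147 CPM in control fibroblast-like cells. Among them Pecam1 was at 10.4 CPM in JQ1 and 4.35 CPM in control (ratio 2.39), and Cdh5 at 7.54 CPM in JQ1 and 4.64 CPM in control (ratio 1.62). Both of these differed more between libraries than the sum of the 10 markers did. The part of endothelial transcripts in the Kdr and Tek values was not tested. Nrp1, at 54.9 CPM in JQ1 and 59.4 CPM in control T-like cells, was in fibroblast-like cells at 214 CPM in JQ1 and 174 CPM in control (ratio 1.23, 1.13 to 1.34), and the median gene there was higher by 0.10 on the log2 scale. Flt1 had 56 UMIs in JQ1 lymphatic-like cells and none in control ones. With control set to a floor of 3 counts the ratio was 2.18, and the exact interval had a lower limit of 1.72. However, 5 cells held 71.4% of the JQ1 Flt1 UMIs in that class. In smooth muscle-like cells Flt1 was at 93.3 CPM in JQ1 and 8.38 CPM in control; 166 of its 189 JQ1 UMIs lay in 27 cells of a Myh11-led cluster with Sele among its leading genes, which held 2 control cells and also 70 of the 71 Kdr UMIs.

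Other genes of the pathway were counted by list. Of 20 VEGF and Tie partners, 11 were measured in capillary-like cells, of which 1 was lower and none higher, beside 5.11% of genes lower and 12.0% higher. The lower one was Thbs1, an inhibitor of vessel growth, at 477 CPM in JQ1 and 732.5 CPM in control. The median log2 ratio of the partners was -0.14 where all genes had 0.06. The orphan receptor Tie1 was at 259 CPM in JQ1 and 261 CPM in control, and the VEGF receptor phosphatase Ptprb at 1154 CPM in JQ1 and 1145 CPM in control. In tip-type cells 2 of 11 partners were higher and 1 lower, beside 11.5% of genes higher and 5.45% lower. The lower one was Sema3a, a neuropilin ligand, at 23.2 CPM in JQ1 and 154 CPM in control (ratio 0.150, 0.0951 to 0.232). In fibroblast-like cells 3 of 16 measured partners were higher and 2 lower, among them Thbs1 at 1546 CPM in JQ1 and 2688 CPM in control, beside the 10.7% of genes higher and 3.89% lower. In lymphatic-like cells 4 of 13 partners were higher and none lower, beside 18.5% of genes higher and 10.1% lower. In keratinocyte-like cells 8 of 15 were higher and 1 lower, beside 19.2% of genes higher and 7.35% lower. The higher ones there included the endothelial genes Cdh5, Tie1 and Ptprb.

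Among 18 tip-cell and VEGF-responsive genes, 17 were measured in capillary-like cells, of which 7 were lower and 1 higher, at a median log2 ratio of -0.41, beside the 5.11% of genes lower and 12.0% higher. In venular-like cells 1 of 14 was lower and 2 were higher (median 0.17), beside 3.79% of genes lower and 11.9% higher. In lymphatic-like cells none of 13 was lower and 4 were higher (median 0.44), beside 10.1% of genes lower and 18.5% higher. Among the genes lower in capillary-like cells, Esm1, induced by VEGF, was at 226.5 CPM in JQ1 and 397 CPM in control. In the same capillary-like cells the Notch ligand Dll4 was at 395 CPM in JQ1 and 624 CPM in control. The basement membrane collagen Col4a1 was there at 1294 CPM in JQ1 and 1972 CPM in control. Some of these genes are tip-type markers, so a change in level and a shift of the border between capillary- and tip-type clusters cannot be told apart. In tip-type cells 18 were measured, 3 higher and 5 lower, beside 11.5% of genes higher and 5.45% lower. Esm1 was at 541 CPM in JQ1 and 249.1 CPM in control tip-type cells. Over all endothelial-like cells 2 were higher and 5 lower of 18, at a median of -0.24, beside the 12.7% of genes higher and 3.43% lower. The chemokine receptor Cxcr4 was at 49.5 CPM in JQ1 and 105 CPM in control, and Kcne3 at 16.4 CPM in JQ1 and 41.6 CPM in control.

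The hypoxia list, whose products sense low oxygen or are induced by it, was measured with all 14 genes in keratinocyte-like cells, where 5 were lower and 1 higher, at a median log2 ratio of -0.36 where all genes had 0.19, 7.35% of them lower and 19.2% higher. The JQ1 and control cells of this class lie mostly in different clusters, and the part of that in these values was not tested. Ldha, lactate dehydrogenase, was at 498 CPM in JQ1 and 849 CPM in control, Pgk1 at 284 CPM in JQ1 and 470.2 CPM in control, and the oxygen sensor Egln3 at 24.0 CPM in JQ1 and 58.7 CPM in control. Vegfa, itself a hypoxia target, had a ratio of 0.739 in the same cells, within 1.5-fold. In fibroblast-like cells 1 of 13 measured hypoxia genes was higher and 1 lower, beside 10.7% of genes higher and 3.89% lower. In capillary-like cells none of 9 was higher and 2 were lower, Hif1a and Pfkfb3, beside 12.0% of genes higher and 5.11% lower. Of 12 forkhead and Tie2 signalling genes, 8 were measured in tip-type cells, where 1, the transcription factor gene Foxo1, was higher and none lower, beside 11.5% of genes higher and 5.45% lower. Foxo1 was at 144 CPM in JQ1 and 93.4 CPM in control there (ratio 1.54, 1.12 to 2.14). In venular-like cells all 12 were measured, Foxo1 and Prox1 were higher and Foxo3 lower, beside 11.9% of genes higher and 3.79% lower, and Foxo1 was at 210 CPM in JQ1 and 120 CPM in control (ratio 1.75, 1.40 to 2.21). In capillary-like cells none of 11 was higher or lower, beside 12.0% of genes higher and 5.11% lower, with a Foxo1 ratio of 1.22. In lymphatic-like cells 2 of 10 were higher and none lower, beside 18.5% of genes higher and 10.1% lower, with a Foxo1 ratio of 1.21.

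Likeness of pattern was taken as Pearson's r of log2(CPM + 1) over 32 class-by-library sums, as a description, since the points share libraries. Kdr was most like Cd300lg (0.959), Tie1 (0.947) and Robo4 (0.946) among 13687 genes, all known from endothelium. Flt1 was most like Tmem252 (0.953) and Adgrf5 (0.938), Flt4 most like Hoxd9 (0.941) and Klhl4 (0.929), and Tek most like Sncaip (0.955) and Dchs1 (0.947). Among ligands Vegfc was most like Baalc (0.909) and Angpt2 most like Arhgef7 (0.853) and Ednrb (0.846). Vegfa, which many classes carried, reached 0.819 with Creb5, Angpt1 reached 0.839 with Igfbp4, Nrp1 0.910 with Il6, and Pgf no more than 0.699 with Anxa5.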

How the data were processed

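Single-cell 3' RNA libraries of JQ1-treated and control tongue tumours, 1 per group, were deposited as raw UMI counts per gene and barcode. Per the submitters' processing notes, mm10, Cell Ranger 3.1.0 and Seurat 4.0.0 were used. The annotation release was not given in the sources used here. No barcode had under 500 UMIs. Barcodes with fewer than 200 genes or a mitochondrial share of 20% or more were dropped, and Scrublet in scanpy 1.11.5 removed 424 JQ1 (2.93%) and 119 control (1.44%) doublet calls. Both libraries were clustered together without batch correction on 2000 variable genes, from which the members and pathway genes were left out, with 30 components, 15 neighbours and Leiden resolution 1.0 (leidenalg 0.10.2). Endothelial, mural and immune clusters were clustered again. A name needed at least 3 markers at 2-fold in 10% of cells. Naming details were settled after the clusters were seen, and members and lists were chosen with earlier results of these data known. UMIs were summed per class. Computation used Python 3.11.15, numpy 2.4.6, scipy 1.17.1 and pandas 2.3.3. Intervals are exact Poisson for levels, Clopper-Pearson for shares and conditional for ratios. The ratio code was tested on simulated counts. All members were named, with pathway genes past 1.5-fold and, for contrast, some within it. Other choices were varied one at a time.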

Additional observations from a re-analysis of the deposited data

Results flagged for a closer look

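Vegfa differed in opposite directions between classes, and the difference between classes was not tested. The JQ1 over control ratio was 3.329 in venular-like, 4.326 in lymphatic-like and 1.671 in pericyte-like cells, against 0.4079 in dendritic-like cells. The venular-, lymphatic- and pericyte-like control values rest on 5, 3 and 11 UMIs.

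Angpt1 likewise had a ratio of 2.121 in pericyte-like and 0.1608 in keratinocyte-like cells, a difference that was not tested. The pericyte-like control value rests on 7 UMIs.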

How the results depend on the processing

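No paired analysis was possible because each group is 1 library and no test was made. Of 602 recomputed member ratios 522 moved by less than their counting interval, 77 moved beyond it and 3, of members past 1.5-fold, turned to the other side of 1: Angpt2 in capillary-like cells was 0.9742 at resolution 0.5 and 0.9421 at resolution 2.0, and in lymphatic-like cells 0.822 by the mean of per-cell CPM. Counting members within 1.5-fold too, 30 of the 602, from 20 of 56 ratios, fell on the other side of 1 from the reported value. Of 216 recomputed counts of members past 1.5-fold, 169 stayed within 1.5 times the reported count and 47 did not; the cause was not tested. In capillary-like cells 0 members were higher with cells thinned to 1000 UMIs, a 2-fold threshold, a stricter cell filter, doublet calls kept, or resolution 0.5 or 2.0, and 1 was lower by the per-cell mean, when thinned or with no minimum of UMIs. In venular-like cells 4 were higher under the stricter cell filter and 1 was lower with no minimum. In lymphatic-like cells 1 was lower by the per-cell mean or with no minimum, and 2 when thinned. In pericyte-like cells 1 was higher when thinned, at 2-fold or where the interval had to leave out 1, and 0 were lower by the per-cell mean, at 2-fold or without the 5 highest cells. In keratinocyte-like cells 5 were higher with at least 20 UMIs, with no minimum or with each library clustered alone, 1 within the Krt13 cluster, and 0 within the Krt42 or Krt6b cluster. There 1 was lower when thinned, at 2-fold, under the interval rule or stricter filter, with doublet calls kept or within the Krt6b cluster, and 0 with libraries clustered alone or within the Krt42 or Krt13 cluster. In fibroblast-like cells 1 was higher with median-ratio size factors, the per-cell mean or the interval rule, 0 at 2-fold, and 1 was lower with at least 20 UMIs or no minimum. In macrophage-like cells 2 were higher with at least 20 UMIs or no minimum and 1 with doublet calls kept, while 2 were lower by the per-cell mean or with no minimum and 0 in C1q macrophages alone. Leaving out the 5 highest cells and splitting by Cd207 were chosen after seeing the data. Clustering each library alone gave no control capillary-like and no JQ1 tip-type class, so those have no value. Small classes limit the control values, among them 74 pericyte-like, 74 arterial-like, 58 tip-type and 46 lymphatic-like cells.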
